A study of Rattus norvegicus with 4 samples.

Results

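The genes examined here encode adhesion molecules that leukocytes use to leave the blood, and proteins that mark the endothelial cells lining blood vessels. The list holds 10 genes: the immunoglobulin-type adhesion molecules Icam1, Icam2 and Vcam1, the selectins Sele and Selp, the endothelial surface proteins Pecam1 and Cd34, the clotting factor carrier Vwf, the secreted factor Egfl7 and the receptor kinase Tek. Probe sets were taken where the platform annotation gave 1 gene symbol and that symbol was on the list. This found 12 probe sets for 9 of the 10 genes, out of 14217 genes with such a probe set, and Cd34 is not analysed here. Signals came from 4 Affymetrix rat arrays, 2 of peri-implant epithelium and 2 of junctional epithelium. Junctional epithelium is the collar that seals the gum to a tooth, and peri-implant epithelium is its counterpart around an implant. Male Sprague Dawley rats aged 4 weeks had a first molar replaced by a titanium alloy implant, and tissue of 20 rats was taken 4 weeks after surgery. The labels give the same extraction and implant treatment for all 4 samples, also for those of junctional epithelium. Epithelium was cut from frozen sections by laser microdissection and its RNA was amplified before labelling. The labels do not say whether an array holds RNA of 1 animal or of several, so p-values measure the spread between these samples, which may be technical.

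Leukocytes roll on selectins, which endothelial cells display on their surface, and then arrest when their integrins bind ICAM and VCAM proteins. In the resting state ICAM-2 and PECAM-1 are present on endothelium, whereas E-selectin, VCAM-1 and much of ICAM-1 appear after stimulation by cytokines such as TNF and interleukin-1. In gingiva, ICAM-1 is also made by the keratinocytes of the junctional epithelium, through which neutrophils migrate towards the tooth surface.

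Values are log2 signals. The number of arrays limits their precision, and a level can be compared between arrays for 1 probe set but not between probe sets. The background level was taken as 6.42, the maximum over 27 control probe sets for bacterial genes and the 4 arrays. The hybridization controls averaged 14.03 and 13.70 on the peri-implant arrays and 13.70 and 13.76 on the junctional arrays. All 8 keratinocyte markers measured exceeded background on every array, as did all 7 fibroblast markers, so transcripts of connective tissue were captured in both groups. Of the 12 member probe sets, 6 exceeded background on every array, 5 lay below it on every array and 1 exceeded it on some arrays. By gene, the brightest probe set exceeded background on all arrays for 6 of 9 genes, namely Icam1, Selp, Pecam1, Vwf, Egfl7 and Tek. It lay below on all arrays for Icam2, Vcam1 and Sele.

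**Figure D1:**
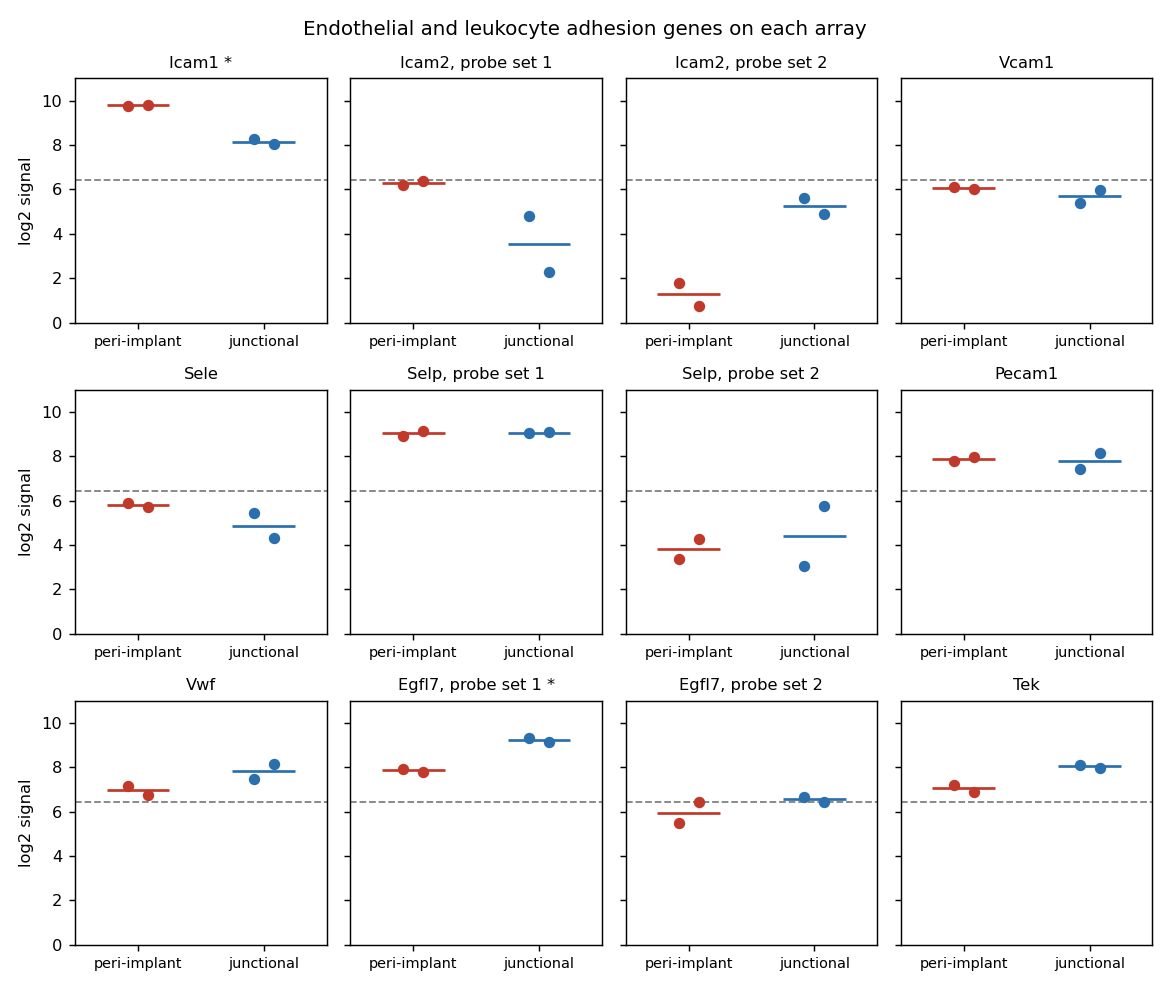
Log2 signal (vertical axis) of each of the 12 member probe sets on the 2 peri-implant arrays (red) and the 2 junctional arrays (blue). Points are arrays, bars are group means, the dashed line is the background level of 6.42 and an asterisk marks the probe sets that passed limma's test with an intensity trend (Icam1 and Egfl7, probe set 1).

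Peri-implant and junctional epithelium were compared to find genes that differ between the epithelium around an implant and that around a tooth. Icam1, a ligand for leukocyte integrins, was higher in peri-implant epithelium, and Egfl7, a factor secreted by endothelial cells, was lower. The other 7 measured genes did not pass the test. In limma with an intensity trend, 1 of the 12 member probe sets passed as higher and 1 as lower (Benjamini-Hochberg adjusted p under 0.05 over all 31042 probe sets). Over all probe sets, 4.74% passed as higher and 4.16% as lower, together 8.90%, and 2 of 12 is 16.7%. With so few probe sets, nothing particular to the list is read from this share. Among the 15185 probe sets above background on every array, where 6 of the members lie, 14.7% passed. With limma's default prior, 0 probe sets of the whole array passed (0.00%, smallest adjusted p = 0.125), while 5247 had an unadjusted p under 0.05.

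Icam1 had signals of 9.76 and 9.82 on the peri-implant arrays, against 8.28 and 8.03 on the junctional arrays. Both peri-implant arrays stood above both junctional arrays, and all 4 exceeded background. The means were 9.79 ± 0.04 in peri-implant and 8.15 ± 0.17 in junctional epithelium (SD, n = 2 each, as below), a log2 difference of 1.64 (95% interval 1.24 to 2.03) or 3.11-fold (limma with an intensity trend, adjusted p = 7.06e-04). The call was lost with limma's default prior (adjusted p = 0.154) and when any array but peri-implant replicate 1 was left out (limma, adjusted p = 0.057 without peri-implant replicate 2, 0.056 without junctional replicate 1 and 0.0688 without junctional replicate 2). In such bulk samples, a different number of cells of one type and a different amount of RNA per cell cannot be told apart. Of 6 leukocyte markers measured, 4 passed as higher and 0 as lower. Over all genes, each by its brightest probe set, 6.60% passed as higher and 4.80% as lower. Of the 6 markers, 5 exceeded background on every array, where 14.7% of probe sets passed in either direction. The groups overlapped for Itgb2 (log2 difference 0.15), and Cd52 (-0.51) was below background on all arrays. The summed signal of the 6 markers was 11.71 and 11.76 on the peri-implant arrays, against 10.93 and 10.57 on the junctional arrays (log2). The part of leukocytes in the Icam1 difference was not tested.

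Icam1 (rat gene identifier 25464) is a protein-coding gene on chromosome 8 from 27829688 to 27841618 in the assembly GRCr8. Its promoter and that of Vcam1 are shown because these genes are textbook targets of NF-kappaB, and that of Egfl7 because this gene differed in the opposite direction. The sequences are RefSeq's for GRCr8 and run from 250 bases before to 50 bases after 1 start listed for the gene. That start is the edge of the gene span for Vcam1 (206742783), but lies inside the span for Icam1 (27829845, 157 bases from its edge) and for Egfl7 (29805631, 3150 bases from its edge), so bases before it can belong to the annotated gene. Of the 10 genes, 5 had a promoter in that table. Capitals mark matches, on either strand, to the kappaB motif GGGRNWYYCC or to the ETS core CCGGAA. In the motif R is A or G, N is any base, W is A or T and Y is C or T.
Icam1, chr8:27829595-27829894, plus strand: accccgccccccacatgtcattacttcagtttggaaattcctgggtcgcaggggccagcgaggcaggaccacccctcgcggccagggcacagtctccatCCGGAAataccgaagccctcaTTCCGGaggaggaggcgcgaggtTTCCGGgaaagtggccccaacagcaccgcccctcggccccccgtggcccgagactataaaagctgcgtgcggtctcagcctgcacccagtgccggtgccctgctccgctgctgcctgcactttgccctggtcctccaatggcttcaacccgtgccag
Vcam1, chr2:206742734-206743033, minus strand: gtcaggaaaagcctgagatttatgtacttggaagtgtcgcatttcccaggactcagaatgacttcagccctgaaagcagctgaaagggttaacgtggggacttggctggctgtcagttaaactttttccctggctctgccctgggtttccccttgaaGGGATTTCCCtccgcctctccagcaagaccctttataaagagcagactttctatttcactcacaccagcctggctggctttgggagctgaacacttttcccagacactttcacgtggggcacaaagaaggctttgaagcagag
Egfl7, first listed start, chr3:29805381-29805680, plus strand: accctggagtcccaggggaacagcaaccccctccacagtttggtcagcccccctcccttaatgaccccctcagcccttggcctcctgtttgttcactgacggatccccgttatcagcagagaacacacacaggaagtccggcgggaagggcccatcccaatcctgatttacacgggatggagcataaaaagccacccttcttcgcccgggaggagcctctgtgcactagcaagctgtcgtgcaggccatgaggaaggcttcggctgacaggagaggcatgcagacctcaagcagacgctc
The Icam1 window held 3 ETS cores and 0 kappaB matches, the Vcam1 window 0 ETS cores and 1 kappaB stretch that matches the motif on both strands, and the Egfl7 window 0 of either. The 3 ETS cores of Icam1 began at 151, 130 and 107 bases before its listed start, which is within the gene span, and the kappaB match of Vcam1 at 93 bases before that of Vcam1. A second listed Egfl7 start, and the windows of Sele and Cd34, held no match. Of all 33469 promoters in the table, 15.0% held an ETS core and 4.18% a kappaB match. The search allowed no mismatch to the kappaB consensus, and known kappaB sites can depart from it, so 0 matches do not show that Icam1 lacks such a site. The stretches tggaaattcc of Icam1 and gggtttcccc of Vcam1 each depart from the consensus at 1 base, and such near matches were not counted. The matches are letters in these windows and were not measured as binding sites.

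Vcam1, which binds the integrin alpha4beta1 of lymphocytes and monocytes, had signals of 6.12 and 6.02 on the peri-implant arrays and 5.40 and 5.98 on the junctional arrays. All 4 lay below background, so no fold is given, and the interval of the log2 difference of 0.38 ran from -0.88 to 1.64. Icam2, a ligand of the same integrin family as ICAM-1, was represented by a pair of probe sets that pointed in opposite directions. The first had signals of 6.18 and 6.37 on the peri-implant arrays, against 4.82 and 2.29 on the junctional arrays. The second had signals of 1.77 and 0.76 on the peri-implant arrays, against 5.62 and 4.88 on the junctional arrays. All 8 values were below background, and neither probe set passed (limma with an intensity trend, adjusted p = 0.137 for the first and 0.109 for the second).

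The selectins did not pass the test. Sele, the E-selectin that cytokine-stimulated endothelium displays, had signals of 5.88 and 5.69 on the peri-implant arrays and 5.45 and 4.30 on the junctional arrays, all below background. Selp encodes P-selectin, which is stored in endothelial granules and in platelets. Its first probe set had signals of 8.91 and 9.15 on the peri-implant arrays and 9.04 and 9.08 on the junctional arrays. The groups overlapped, and the log2 difference was -0.03 with a 95% interval of -0.42 to 0.36 (limma with an intensity trend, adjusted p = 0.946), the narrowest interval of the 12 probe sets. The second Selp probe set lay between 3.38 and 4.25 on the peri-implant arrays and between 3.06 and 5.75 on the junctional arrays, below background throughout. Sele and Selp are neighbours on chromosome 13 of GRCr8, from 78935997 to 78945905 and from 79009379 to 79044994.

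Pecam1 encodes PECAM-1, a protein of endothelial cell contacts that platelets and leukocytes carry as well. Its signals were 7.78 and 7.98 on the peri-implant arrays and 7.44 and 8.15 on the junctional arrays. The peri-implant values lay between the junctional ones, and the log2 difference of 0.09 had an interval of -0.58 to 0.76 (limma with an intensity trend, adjusted p = 0.898). These intervals limit but do not exclude a difference in Selp or Pecam1.

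Egfl7 had signals of 7.92 and 7.79 on the peri-implant arrays, against 9.34 and 9.12 on the junctional arrays, from its first probe set. Both peri-implant arrays stood below both junctional arrays. The means were 7.86 ± 0.09 in peri-implant and 9.23 ± 0.15 in junctional epithelium, a log2 difference of -1.37 (95% interval -1.82 to -0.92), or 2.59-fold lower (limma with an intensity trend, adjusted p = 0.00377). Its second probe set had signals of 5.47 and 6.42 on the peri-implant arrays, against 6.67 and 6.46 on the junctional arrays. There too the peri-implant arrays were lower without overlap, at least 1.10-fold, close to background and without passing (adjusted p = 0.509). The mean of both probe sets gave a log2 difference of -0.996, which did not pass (limma with an intensity trend, adjusted p = 0.071). The call of the first probe set was lost with the default prior (adjusted p = 0.161) and when any 1 of the 4 arrays was left out (adjusted p from 0.0559 to 0.134).

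Egfl7 spans positions 29802481 to 29814966 of chromosome 3 in GRCr8, and the microRNA miR-126 lies within it. This microRNA is known from human endothelial cells to repress VCAM1. The rat mature sequences on the same strand as Egfl7 are shown because they share its locus, with the seed (bases 2 to 8) in capitals. The values above are those of Egfl7 probe sets only and give no level of the microRNA.
rno-miR-126a-3p, chr3:29813219-29813240, plus strand: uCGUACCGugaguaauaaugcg
rno-miR-126a-5p, chr3:29813182-29813202, plus strand: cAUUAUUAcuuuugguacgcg
Both sequences are RefSeq's for GRCr8.

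Tek encodes TIE2, the endothelial receptor for angiopoietins. It had signals of 7.22 and 6.90 on the peri-implant arrays, against 8.12 and 7.97 on the junctional arrays. The groups did not overlap. The log2 difference was -0.98 (95% interval -1.62 to -0.34), a ratio of 1.97, and missed the threshold (limma with an intensity trend, adjusted p = 0.0626). It passed with probe sets near background left out (adjusted p = 0.0361), with low signals raised to background (adjusted p = 0.0251) and with the replicate number as a block (adjusted p = 0.0385). It did not pass with limma's default prior (adjusted p = 0.213), quantile normalization (0.0536), a linear offset of 64 (0.0666) or 1 probe set per gene (0.0528). With each array left out in turn, the difference ran from -1.14 to -0.82.

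Vwf encodes von Willebrand factor, which endothelial cells and platelets store and release. Its signals were 7.18 and 6.76 on the peri-implant arrays, against 7.47 and 8.15 on the junctional arrays. The groups did not overlap, the log2 difference was -0.84 (95% interval -1.61 to -0.08), and the test was not passed (limma with an intensity trend, adjusted p = 0.163). The 4 probe sets of Egfl7, Tek and Vwf all had lower means in peri-implant epithelium, and 1 of the 4 passed. Over all probe sets, 4.16% passed as lower. These genes are set together here by their direction. Among the other members above background, Selp (probe set 1) and Pecam1 had differences of -0.03 and 0.09, and Icam1 was higher.

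**Figure D2:**
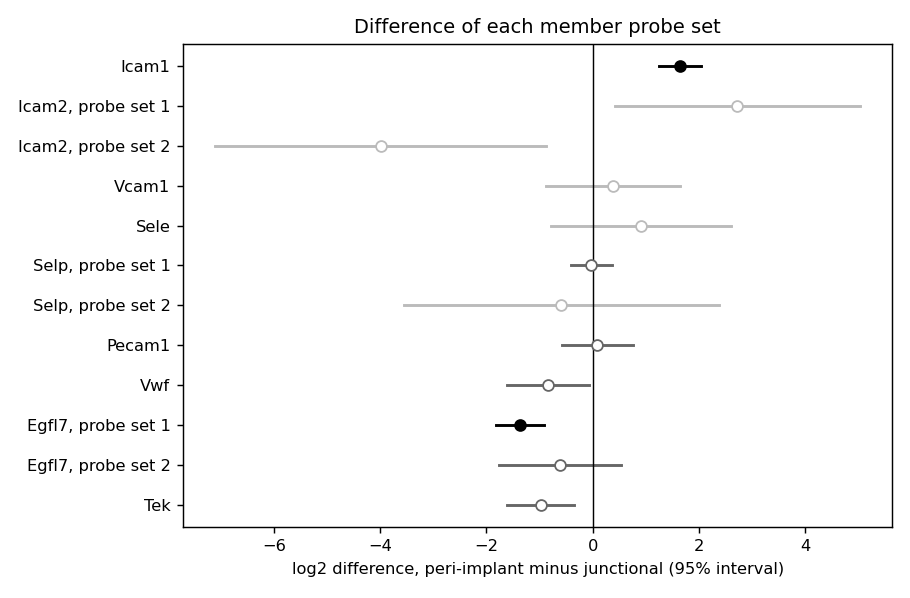
Log2 difference, peri-implant minus junctional (horizontal axis), of the 12 member probe sets, with the 95% interval from limma with an intensity trend. Black filled points passed the test, dark grey open points did not, and light grey open points were below background on all 4 arrays. Icam1 stands at 1.64 and Egfl7, probe set 1, at -1.37, while Selp, probe set 1, and Pecam1 stand close to 0.

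Over the 12 probe sets, 4 were higher in peri-implant epithelium without overlap of the arrays, 5 were lower without overlap and 3 overlapped. Of those higher, all but Icam1 (Icam2, probe set 1, Vcam1 and Sele) were below background on every array. Of those lower, the second Icam2 probe set was. Over all probe sets, 27.8% were higher without overlap and 25.4% were lower. The median log2 difference of the 9 genes, each by its brightest probe set, was 0.09, beside 0.05 over 14217 genes. It includes Icam2 (2.72), Vcam1 (0.38) and Sele (0.91), which were below background on all arrays. Of the 6 genes above background, Icam1 and Pecam1 had positive differences, and Selp, Vwf, Egfl7 and Tek had negative ones.

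Genes with the most similar pattern over the 4 arrays were sought among 8773 genes above background on every array, by the Euclidean distance between mean-centred log2 values. For Icam1 they were Coro1a (distance 0.10), Ccr1 (0.11) and Casp4 (0.16). For Egfl7 they were Ly6i (0.12), Tmem260 (0.15) and Adgrg2 (0.16). The points are the 4 arrays that gave the differences above, so the likeness is a description.

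Other endothelial genes were measured by 21 of 23 listed symbols, of which 17 exceeded background on any array. Thbd passed as higher, and Aplnr and Plvap passed as lower, against 18 that did not pass. Over all genes, each by its brightest probe set, 6.60% passed as higher and 4.80% as lower. The median log2 difference of the list was -0.39, or -0.27 with low signals set to the background level. Aplnr, the apelin receptor, averaged 8.77 ± 0.26 in peri-implant and 9.77 ± 0.04 in junctional epithelium (limma with an intensity trend, adjusted p = 0.00902). Plvap, which forms the diaphragms of fenestrated capillaries, averaged 8.89 ± 0.26 in peri-implant and 9.67 ± 0.29 in junctional epithelium (adjusted p = 0.0392). Thbd encodes thrombomodulin, an anticoagulant receptor of endothelium that keratinocytes also make, and averaged 9.25 ± 0.01 in peri-implant and 7.89 ± 0.37 in junctional epithelium (adjusted p = 0.00684). Kdr, the main VEGF receptor, averaged 9.63 ± 0.16 in peri-implant and 9.69 ± 0.12 in junctional epithelium (adjusted p = 0.866).

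The summed signal of the 21 endothelial genes, which include Aplnr and Plvap, was 12.11 and 12.07 on the peri-implant arrays. It was 12.27 and 12.42 on the junctional arrays (log2), and Mmrn1 was listed at 0 on 1 junctional array. The part of endothelial content in the Egfl7, Tek and Vwf differences was not tested. Among the 5 measured markers that define endothelium (Kdr, Flt1, Tie1, Esam and Emcn), 5 exceeded background on all arrays and 0 passed in either direction, with a median of -0.06. The summed signal of these 5 overlapped between the groups, with 10.68 and 10.60 on the peri-implant arrays and 10.57 and 10.76 on the junctional arrays (log2). Platelets carry Vwf, Selp and Pecam1 too, and red cells mark captured blood. The platelet and red cell lists, with 4 and 3 genes measured, had 0 genes past the test. Their summed signals (log2, peri-implant against junctional arrays) were 13.55 and 13.55 against 13.73 and 13.80 for platelets. For red cells they were 13.62 and 13.56 against 13.86 and 13.83. Each sum is largely 1 gene. Ppbp had 13.48 and 13.50 against 13.68 and 13.75, and Hbb had 13.60 and 13.54 against 13.82 and 13.80. The median log2 difference was 0.54 for platelets, or -0.11 with low signals set to the background level. For red cells these medians were -0.71 and -0.24.

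Of 4 lymphatic endothelial markers, Pdpn, which basal keratinocytes also make, passed as lower by 0.47 on the log2 scale, to 11.58 ± 0.16 in peri-implant against 12.06 ± 0.13 in junctional epithelium. Prox1 and Flt4 were below background on all arrays, and Lyve1 was below it on both peri-implant arrays. For comparison, 6.60% of all genes passed as higher and 4.80% as lower. Of 5 genes that act with Tek, 0 passed, with a median of 0.37. The ligand Angpt2, which destabilises vessels by competing for TIE2, had signals of 6.43 and 7.15 on the peri-implant arrays and 5.34 and 4.58, below background, on the junctional arrays (at least 1.29-fold, limma with an intensity trend, adjusted p = 0.0893). Tie1, the co-receptor of TIE2, averaged 8.16 ± 0.02 in peri-implant and 7.29 ± 0.15 in junctional epithelium (adjusted p = 0.0703), a difference in the opposite direction to that of Tek. Among pericyte and smooth muscle markers, which lie beside the endothelium, 0 of 8 passed as higher and Cspg4 passed as lower, with a median of 0.02, or 0 with low signals set to the background level.

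On the leukocyte side, 9 of 12 counter-receptors of these molecules were measured, with 2 passing as higher, 1 as lower and a median of 1.04. With low signals set to the background level, this median was 0.15. Itgal, the alpha chain of the ICAM-1 receptor LFA-1, had signals of 7.68 and 8.19 on the peri-implant arrays, against 6.12 and 6.40, below background, on the junctional arrays. It was at least 2.86-fold higher (limma with an intensity trend, adjusted p = 0.0184). Its partner chain Itgb2 averaged 7.38 ± 0.88 in peri-implant and 7.22 ± 0.47 in junctional epithelium and did not pass (adjusted p = 0.877). Spn, the leukocyte sialomucin CD43, averaged 8.30 ± 0.12 in peri-implant and 7.22 ± 0.03 in junctional epithelium (adjusted p = 0.0312). Itgb1, a chain of the VCAM-1 receptor and of most epithelial matrix receptors, was lower by 0.32 on the log2 scale in peri-implant epithelium (11.87 ± 0.05 against 12.18 ± 0.08 in junctional epithelium, adjusted p = 0.0497). Among neutrophil markers 5 of 6 and among macrophage and dendritic cell markers 3 of 8 passed as higher, and 0 as lower. Over all genes, 6.60% passed as higher and 4.80% as lower. Above background on every array were 5 of the 6 neutrophil and 7 of the 8 macrophage and dendritic cell markers. Of all such probe sets, 14.7% passed in either direction. The neutrophil markers that passed include S100a8 and S100a9, and which cells their transcripts came from was not tested.

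Among 11 measured adhesion and junction molecules outside the members, 2 passed as higher and 0 as lower, with a median of 0.01, or 0 with low signals set to the background level. For comparison, 6.60% of all genes passed as higher and 4.80% as lower. Among probe sets above background on every array, 14.7% passed in either direction. Jam2, a junctional adhesion molecule of endothelium, had signals of 8.50 and 8.14 on the peri-implant arrays, against 6.37 and 6.89 on the junctional arrays, at least 3.18-fold higher (limma with an intensity trend, adjusted p = 0.0115). F11r, the junctional adhesion molecule A of epithelium, endothelium and platelets, was higher by 0.49 on the log2 scale (13.01 ± 0.03 in peri-implant and 12.52 ± 0.01 in junctional epithelium, adjusted p = 0.00414). Of 8 measured enzymes that build selectin ligands, the sialyltransferase gene St3gal6 passed as higher (by 0.77 on the log2 scale, limma with an intensity trend, adjusted p = 0.0297). As lower, 0 passed, and the median was 0.49, or 0.14 with low signals set to the background level. Beside the shares over all genes, nothing particular to either list is read from these counts.

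Of 17 genes of the cytokine signals and NF-kappaB components that control these adhesion molecules, 5 passed as higher, 0 as lower and 12 did not pass. The median was 0.27, or 0.05 with low signals set to the background level. Shares over all genes were 6.60% higher and 4.80% lower. Of the 17, 13 exceeded background on every array, where 14.7% of probe sets passed in either direction. Il1b, the cytokine interleukin-1 beta, had signals of 13.38 and 13.36 on the peri-implant arrays, against 11.83 and 11.79 on the junctional arrays, 2.95-fold higher (limma with an intensity trend, adjusted p = 3.76e-06). Nfkb1 averaged 10.97 ± 0.01 in peri-implant and 9.77 ± 0.04 in junctional epithelium, and Nfkb2 averaged 10.38 ± 0.08 in peri-implant and 9.25 ± 0.01 in junctional epithelium. Nfkbia, which encodes the inhibitor that NF-kappaB itself induces, averaged 10.97 ± 0.01 in peri-implant and 10.07 ± 0.00 in junctional epithelium. The adjusted p of these 3 was 2.77e-04, 0.0011 and 0.00131 in that order, in limma with an intensity trend. Il1a, outside the naming rule, was the fifth, with a log2 difference of 0.85. Tnf averaged 7.99 ± 0.40 in peri-implant and 7.72 ± 0.15 in junctional epithelium and did not pass (adjusted p = 0.609). For Rela (log2 difference 0.05), Relb (0.03) and Irf1 (0.01) the groups overlapped. Of the receptor genes, Tnfrsf1a (0.27) and Ifngr1 (0.22) were higher in peri-implant epithelium and Il1r1 (-0.60) was lower, each without overlap. None of these passed.

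**Figure D3:**
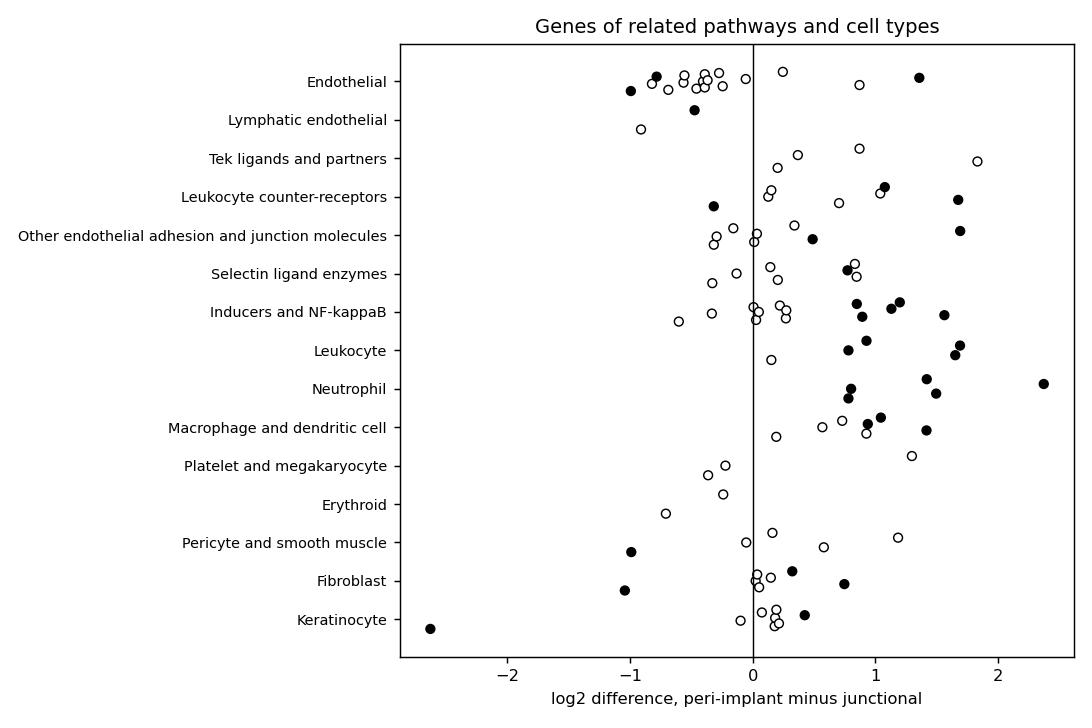
Log2 difference, peri-implant minus junctional (horizontal axis), of genes in related pathways and cell type lists (rows), each by its brightest probe set, with genes below background on all 4 arrays left out. Filled points passed limma's test with an intensity trend. In the leukocyte and neutrophil lists 4 and 5 genes passed, all of them higher, while in the endothelial list 1 passed as higher and 2 as lower.

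**Figure D4:**
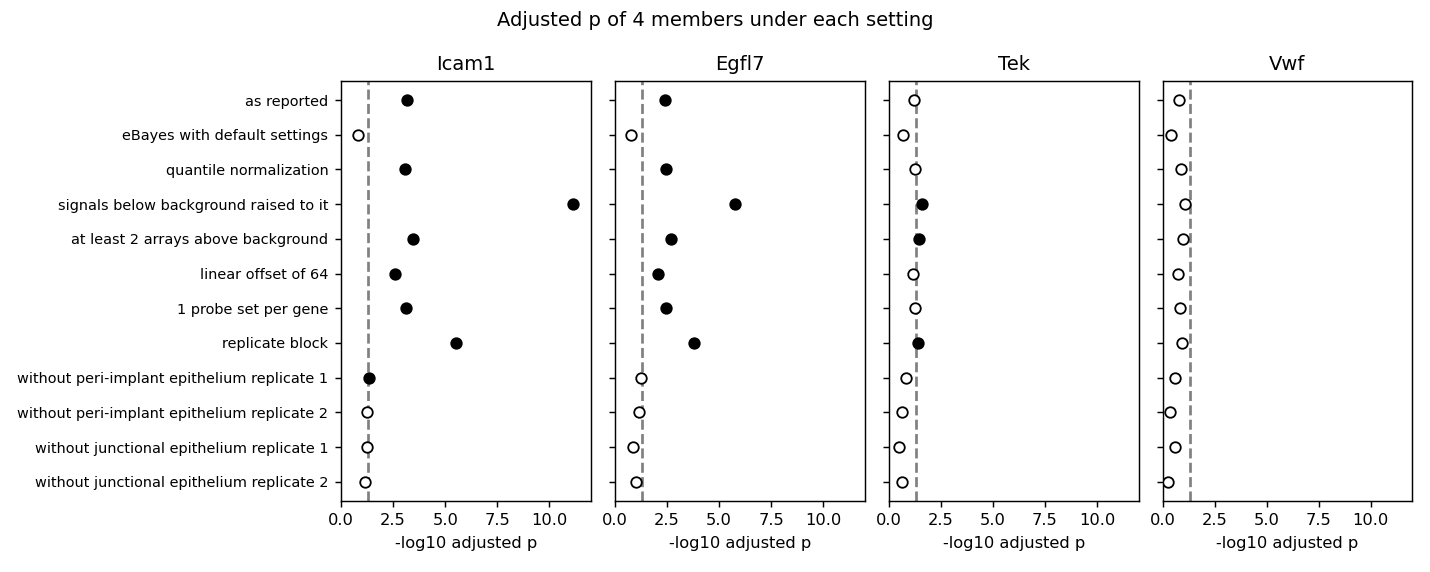
Adjusted p, as -log10 (horizontal axis), of Icam1, Egfl7, Tek and Vwf under the reported settings and 11 others (rows), with the threshold of 0.05 as a dashed line and filled points past it. Raising low signals to background left the signals of these genes unchanged and altered only other probe sets, so that row adds no evidence on them. Icam1 passed except with the default prior and without 3 of the 4 arrays, Egfl7 except with the default prior and without any 1 of the 4 arrays, Tek passed under 3 settings and Vwf under none.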

How the data were processed

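RNA of 4 samples was measured on Affymetrix rat arrays after amplification with the Ovation system, per the labels' protocols. The authors deposited log2 signals for 31099 probe sets, and the labels name neither software nor normalization (not given in the sources used here). Values were used without further normalization. Control probe sets (57) were left out, which left 31042. Groups and replicate numbers came from the sample titles. Of the probe sets, 20826 carried 1 symbol, 436 several and 9780 none in the platform annotation, and a gene was read from its probe set with the highest mean. The groups were compared in R 4.3.3 with limma 3.58.1 (lmFit, eBayes with trend and robust set, two-sided, 2 residual degrees of freedom) and Benjamini-Hochberg adjustment at 0.05, over all probe sets. Where an array of the dimmer group lay below background, signals were raised to it and a fold is given as "at least".

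All members are named at every probe set. From each other list, genes past the test came first by size, up to 4, then the brightest above background, and not every gene so chosen is given. The Tek partners, the selectin ligand enzymes and the defining endothelial markers are given as counts, medians or summed signals with few names. So are the fibroblast, keratinocyte and blood cell lists. Flt1, Esam, Emcn, Itgb2, Cd52, Tnf and Mmrn1 were named after their values were seen. So were Rela, Relb, Irf1, Tnfrsf1a, Ifngr1, Il1r1, Prox1, Flt4 and Lyve1. The members, lists and the choice of the intensity trend were made with earlier results of these data known. Alternatives were the default prior, quantile normalization, background raised, a filter on low signals, a linear offset of 64, 1 probe set per gene, the mean of a gene's probe sets, a replicate block and leaving out each array.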

Additional observations from a re-analysis of the deposited data

How the results depend on the processing

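Of 96 recomputed member differences, 79 kept their direction and their side of the threshold, 10 lost the call, 3 (all Tek) gained one and 4 changed sign. A further 3 (Icam2, Vcam1 and Sele) had no difference left, and so no direction, with signals raised to background. With limma's default prior the counts were 0 member probe sets and 0 over all, and Icam1 (1.64, adjusted p = 0.154) and Egfl7 (-1.37, adjusted p = 0.161) lost their calls. The count over all was 1810 of 14217 with 1 probe set per gene and 4202 with the replicate block, against 2762. Deviations of same-numbered arrays from their group means had a correlation of 0.06 across 15185 probe sets, which are not independent, so the numbers were not taken as pairs. The block changed no member call but that of Tek. Over the mean of both probe sets Egfl7 was -0.996 (adjusted p = 0.071) and Icam2 -0.63, a change of sign. Leaving out 1 array at a time gave 0 to 1 member probe sets and 73 to 353 over all, with fewer samples in each fit. In those fits Icam1 ran from 1.51 to 1.76, Egfl7 from -1.48 to -1.26, Selp from -0.14 to 0.0887 and Pecam1 from -0.27 to 0.44. Selp changed sign without peri-implant replicate 1, and Pecam1 without peri-implant replicate 2 (-0.01) or junctional replicate 1. With 1 sample left in a group, its spread is assumed to be that of the other. Signals below background (Icam2, Vcam1 and Sele) limit what can be said of these genes.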
